A study of Drosophila melanogaster with 6 samples.

Results

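The Halloween genes phm, dib, sad, spo, shd and nvd encode enzymes that build the insect moulting hormone, and their transcript levels were compared between Drosophila melanogaster embryos of 2 genotypes, wild type and CrebA null mutant, with 3 samples each, on Affymetrix Drosophila Genome 2.0 arrays. They were found by gene symbol in the platform's probe annotation. The symbol phm stood on no probe set there, but the gene is listed under its other symbol phtm, and its gene ID and the RefSeq synonyms phm and Cyp306a1 identified it. The annotation's Phm is a different gene, for an enzyme that processes peptides, and was not counted. All 6 genes were measured, by 7 of the 18769 probe sets tested, and they made up 6 of 11982 genes with a probe set of their own. The gene shd had 2 probe sets and the others 1 each. The study asks which transcripts depend on CrebA, a bZIP transcription factor of secretory cells.

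Both groups were whole embryos, collected for 8 h and aged for 11 h more, given in the labels as stage 11 to stage 15 in one place and to stage 17 in another. Wild-type embryos had also passed through the COPAS sorter, and the null mutants were picked there by the missing fluorescence of a GFP balancer chromosome. The CrebA allele and the strain of the wild type are not given in the sources used here. The annotation names no probe set CrebA, and the genotype labels had no check on the arrays. No label names separate collections for the replicates, and each p-value rests on a spread between samples that may be technical. In whole embryos, fewer cells of a type and less RNA per cell cannot be told apart.

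In insects, ecdysteroids are made from dietary sterol in a chain of oxidations. In Drosophila this takes place mainly in the prothoracic part of the ring gland, which forms during embryogenesis. The Rieske oxygenase Neverland (nvd) takes the first step on cholesterol, the P450 enzyme Spook (spo) acts in the poorly defined steps that follow, and the P450 enzymes Phantom (phm), Disembodied (dib) and Shadow (sad) then add hydroxyl groups to give ecdysone. Shade (shd) turns ecdysone into its active form in peripheral tissues. Embryos that lack one of these P450 enzymes fail to form normal cuticle, and the group takes its name from their ghostlike appearance.

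Several Halloween genes gave signals near background, so each was read beside 17 Tag controls, probe sets for sequences that flies lack, whose highest value on an array lay between 4.71 and 5.28 on the log2 scale. In both genotypes replicate 2 differed from the other arrays, with first principal component scores of 53.5 and 20.1 against -36.8 to -3.20. The changes that rest on these arrays are given with and without them.

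The gene dib was higher in the mutants, and it was the 1 of 6 Halloween genes that passed the test, against 2.92% of all genes called in either direction, 1.90% called higher and 1.02% called lower. Its level was 5.72, 5.58 and 5.52 (log2) on wild-type arrays 1, 2 and 3, and 6.32, 6.55 and 6.44 on mutant arrays 1, 2 and 3. The genotypes did not overlap, and all 6 values lay above the highest Tag control of their array. The rise was 1.77-fold, a log2 change of 0.83 (SE 0.10, 95% interval 0.58 to 1.07, adjusted p 0.0203 by limma), with group means of 5.61 ± 0.11 and 6.43 ± 0.12 (SD, n = 3 each). Without both replicate 2 arrays the log2 change was 0.75 (adjusted p 0.0303). The call was lost when any 1 of the 6 arrays was left out, with adjusted p-values of 0.0514 to 0.0865 and log2 changes of 0.77 to 0.89.

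**Figure D1:**
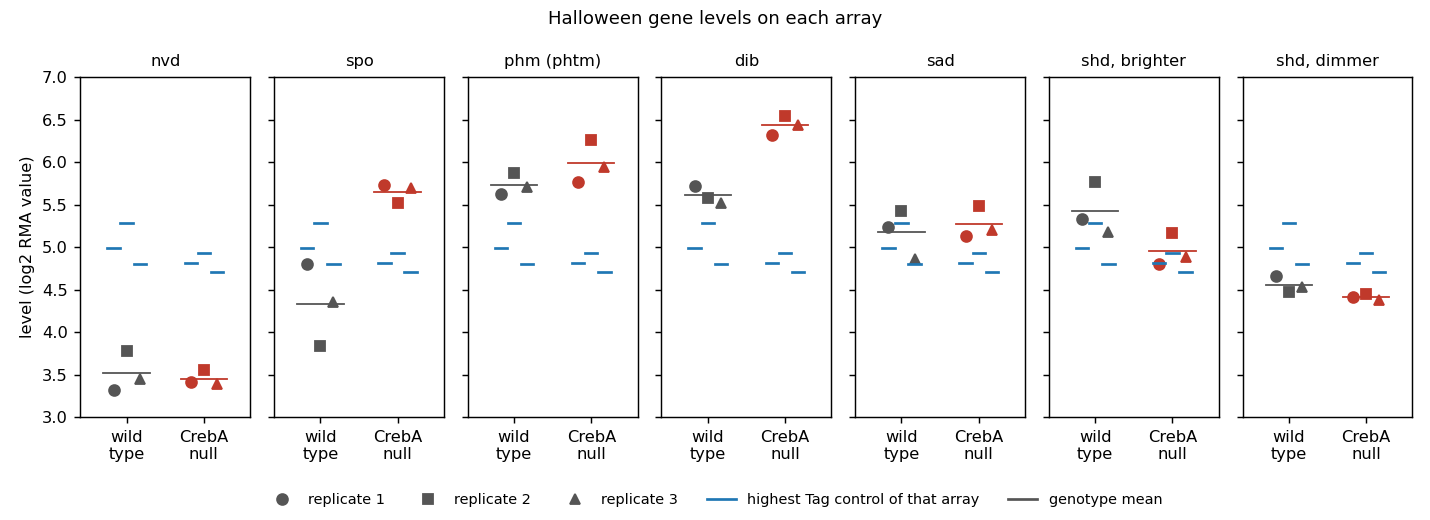
Level of each Halloween gene probe set (log2 RMA value, vertical axis) on the 3 wild-type arrays (grey) and the 3 CrebA null arrays (red), with marker shapes for replicate numbers, a line at each genotype mean and a blue tick at the highest Tag control of that array. Levels are to be read within a panel, since probe sets differ in brightness; dib and spo lie higher in the mutants on all 3 arrays, and nvd and the dimmer shd probe set lie under the ticks on all 6.

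The gene spo was higher on every mutant array. It missed the test without the replicate block, though some other settings without that block called it. Wild-type levels were 4.80, 3.83 and 4.35 (log2) on arrays 1, 2 and 3, each at or below the highest Tag control of its array, and mutant levels were 5.73, 5.52 and 5.69, each above it. The genotypes did not overlap. Because the wild-type signal lay within that of foreign sequences, its fold is a lower bound: the mutant mean of 5.65 ± 0.11 was at least 1.54-fold above the wild-type arrays' mean highest Tag control of 5.02. The fitted log2 change was 1.32 (SE 0.24, 95% interval 0.73 to 1.91, adjusted p 0.0555 by limma), from a wild-type mean of 4.33 ± 0.48 (SD, n = 3 each).

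With the replicate number as a block, spo was called (adjusted p 0.00282), and also without both replicate 2 arrays (log2 change 1.14, adjusted p 0.0266). Without a block, limma also called it with an intensity trend (adjusted p 0.0284) and with arrays weighted (0.00912). So did a filter on the Tag controls (0.0446), which spo passed through its mutant arrays alone. It stayed uncalled in the robust fit (0.0635) and after quantile (0.0726), array median (0.0541) or ribosomal protein scaling (0.0893). The wild-type replicate 2 array gave its lowest value, 0.74 below the mean of the other wild-type arrays. Over single arrays left out, the adjusted p ran from 0.0533 to 0.211 and the log2 change from 1.07 to 1.56. The name of its probe set ends in _s_at, the array maker's mark for probes shared between transcripts, so signal from a near relative cannot be set apart. Its close paralog is spookier (spok), which does the same step in larvae. Its own probe set read 3.72, 3.91 and 3.76 in wild type and 3.95, 4.11 and 4.03 in mutants, at or below the highest Tag control on all 6 arrays.

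The gene shd went the other way in both of its probe sets, and neither passed the unblocked test with equal array weights. The brighter one read 5.33, 5.76 and 5.18 (log2) in wild type and 4.80, 5.17 and 4.89 in mutants. Wild-type arrays all lay above the mutant ones, but narrowly, with 5.18 in wild type 3 against 5.17 in mutant 2, and mutant array 1 did not exceed its highest Tag control. The log2 change was -0.47 (SE 0.18, 95% interval -0.92 to -0.03, adjusted p 0.321 by limma), from 5.42 ± 0.30 to 4.95 ± 0.19 (SD, n = 3 each). With the replicate block it was called lower (adjusted p 0.0172), as it was without the block when arrays were weighted (-0.49, adjusted p 0.0274). Within pairs, mutant minus wild type was -0.54, -0.59 and -0.29 for replicates 1, 2 and 3. Of all genes, 28.8% were lower in all 3 pairs. The dimmer probe set lay at or below the highest Tag control on all 6 arrays, from 4.47 to 4.66 in wild type and from 4.37 to 4.45 in mutants. It changed by -0.14 (95% interval -0.34 to 0.06, adjusted p 0.590, and 0.320 with the block), and no fold is given for it.

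The remaining Halloween genes were not called with or without the block. The gene phm, whose enzyme acts one step before Disembodied, read 5.62, 5.87 and 5.71 (log2) in wild type and 5.76, 6.25 and 5.95 in mutants. The groups overlapped, while each mutant array lay above the wild-type array of its number, as 25.9% of all genes did in all 3 pairs. Its log2 change was 0.25 (95% interval -0.11 to 0.61, adjusted p 0.575), and 0.0942 was its adjusted p with the block. The 95% interval of that fit was 0.05 to 0.45.

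The gene sad read 5.24, 5.42 and 4.86 (log2) in wild type and 5.13, 5.48 and 5.21 in mutants. The groups overlapped, with all 6 values just above the highest Tag control of their arrays. The log2 change was 0.10 (95% interval -0.33 to 0.53, adjusted p 0.897 by limma), so a change of the size of that of dib lay outside the interval. Its sign turned without wild type replicate 3 (-0.06). The gene nvd read 3.32, 3.77 and 3.45 in wild type and 3.41, 3.55 and 3.39 in mutants. These values lay well within the Tag controls on every array, and nvd was not detectable above foreign sequence in either genotype. Its change of -0.06 (95% interval -0.39 to 0.27, adjusted p 0.921) is therefore a difference within background.

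**Figure D2:**
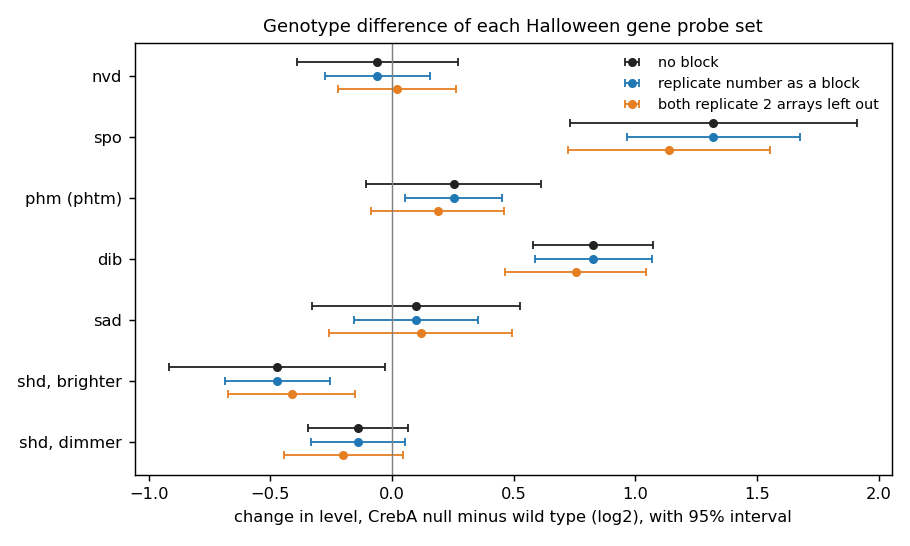
Change in level of each Halloween gene probe set, CrebA null minus wild type (log2, horizontal axis), with its 95% interval from limma, for the fit without a block, with the replicate number as a block and with both replicate 2 arrays left out. Intervals of dib and spo lie above 0 in all 3 fits, those of the brighter shd probe set below 0, and those of sad and nvd span 0.

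Over the 6 genes together, by the brighter probe set of shd, 1 rose, 0 fell and 5 were not called. The values of 3 did not overlap between genotypes (dib, spo and shd), against 21.1% of all genes. With the replicate block 2 rose and 1 fell, against 21.8% of all genes called in that fit, 12.6% higher and 9.21% lower. The median log2 change was 0.18, against -0.02 over all genes. The members did not share 1 direction: every mutant value of dib and spo lay above every wild-type value, those of shd lay below, and the intervals of phm, sad and nvd held 0 in the fit without a block. Above the highest Tag control lay phm, dib and sad on all 6 arrays, spo on the 3 mutant arrays alone, shd on 5 arrays and nvd on none. Among the related lists, 40 of 81 other P450 genes lay above it on all 6 arrays, and so did 8004 of all 11982 genes.

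The Halloween genes also differed in how they varied between replicates. In wild type, replicate 2 lay above the mean of replicates 1 and 3 by 0.51 for the brighter shd probe set, 0.39 for nvd, 0.37 for sad and 0.20 for phm, and in the mutants by 0.33, 0.15, 0.32 and 0.40. It lay below that mean for spo, by 0.74 in wild type and by 0.19 in the mutants. The gene dib hardly shifted in wild type (-0.04) and lay 0.17 higher in mutant replicate 2. For sad and nvd these shifts between replicates exceeded the change between genotypes in both groups, for phm in the mutants alone and for shd in wild type alone. For dib and spo they did so in neither.

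Patterns over the 6 arrays, each centred on its own mean, were compared with those of 5155 named genes above the Tag controls on all 6 arrays, by the root mean square difference of log2 values. The genes most like dib were if, an alpha integrin gene (0.09), gfzf (0.10) and Gycalpha99B, a guanylyl cyclase subunit gene (0.10), with log2 changes between genotypes of 0.87, 0.86 and 0.70. Those most like spo were Tsp66E, a tetraspanin gene (0.18), kek5 (0.22) and Aplip1 (0.23), and those most like shd were TM9SF4, Trs20 and by, all with a difference of 0.04 to 0.05. For phm they were fabp, Bmcp and mtDNA-helicase (0.05 to 0.06), for sad Flo2, dpr7 and lncRNA:CR43242 (0.04 to 0.06) and for nvd Qsox1, Wdr59 and Marcal1 (0.05). Among the Halloween genes themselves the closest patterns were those of phm and sad (0.17), and the farthest those of spo and shd (1.01). With 6 arrays and so many genes, close matches arise readily, and the likeness is a description of these arrays. The values of nvd on all 6 arrays, and of spo in wild type, lay at or below the highest Tag control. Their patterns there cannot be told from background.

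**Figure D3:**
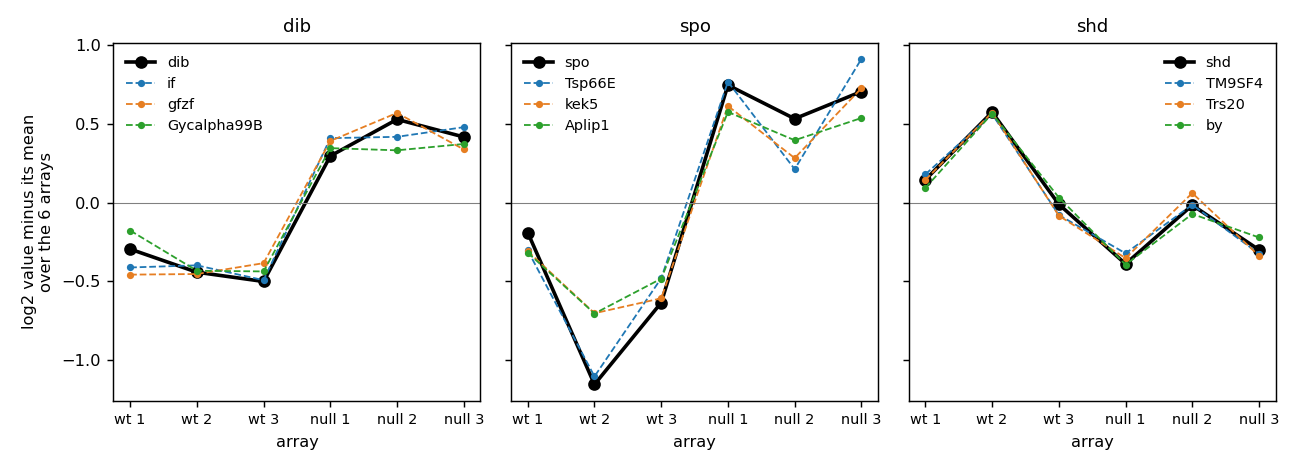
Log2 values on the 6 arrays (horizontal axis), each minus the gene's own mean over them (vertical axis), for dib, spo and the brighter shd probe set in black and for the 3 genes most like each in colour. The pattern of dib separates the genotypes with little spread within them, that of spo dips in wild type 2, and that of shd peaks in wild type 2.

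Genes that act beside the Halloween enzymes were read from lists of known roles. Of 9 measured genes of sterol supply and early steps, 0 were called, with or without the block. Over all genes 2.92% were called without it and 21.8% with it. In this list log2 changes ran from -0.19 to 0.23 (median 0.06). Npc2a and Npc1a, which move sterol out of late endosomes, had changes of 0.19 (SE 0.12, adjusted p 0.642) and 0.15 (SE 0.11, adjusted p 0.689). The list also held sro and GstE14, whose enzymes act early in ecdysteroid synthesis in the fly and which changed by 0.06 and -0.04. The levels of GstE14 lay within the Tag controls on all 6 arrays, and those of sro on 4. The ferredoxin genes Fdx2 and Fdx1, for proteins that pass electrons to mitochondrial P450 enzymes, changed by -0.02 and -0.07 (adjusted p 0.985 and 0.823), and neither was called with the block.

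Of 16 measured regulators of Halloween gene expression, 0 were called, against 2.92% of all genes. With the block 3 rose and 2 fell, 31.2% of the list against 21.8% of all genes (median log2 change -0.09). The zinc finger gene woc changed by -0.14 (SE 0.13, adjusted p 0.776) and the nuclear receptor gene ftz-f1 by 0.67 (SE 0.43, adjusted p 0.622, and 0.00377 with the block). Besides ftz-f1 and kni, limma with the block called ecd, Smox and vvl. Their changes were 0.33, 0.47 and -0.66, with blocked adjusted p-values of 0.0397, 0.0178 and 0.0439. The gene with the largest change in this list was kni, named here after its values were seen. This gap gene, which is also needed for Halloween gene expression in the ring gland, went from 8.96 ± 0.42 to 7.84 ± 0.10 (log2, SD, n = 3 each), with no overlap, a change of -1.13, an adjusted p of 0.0604 by limma and 0.00368 with the block.

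Of 4 genes of export, uptake and inactivation, 0 were called, against 2.92% of all genes (median log2 change -0.07). With the block 1 fell, against 9.21% of all genes. That one was Oatp74D, the ecdysone importer gene, at 9.48 ± 0.25 in wild type and 8.75 ± 0.25 in the mutants (log2, SD, n = 3 each). Its change was -0.73 (SE 0.18, adjusted p 0.117, and 0.00249 with the block), and the genotypes did not overlap. Cyp18a1, which inactivates the hormone, changed by -0.19 (SE 0.17, adjusted p 0.753).

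Of 23 measured genes of the ecdysone response, 1 rose, 1 fell and 21 were not called. Each call is 4.35% of the list, against 1.90% of all genes called higher and 1.02% lower. With the block 3 rose and 5 fell, 34.8% of the list against 21.8% of all genes (median log2 change -0.09). The ecdysone-inducible gene MsrA, listed as Eip71CD, changed by 2.44 (SE 0.26, adjusted p 0.0145) and ImpL1 by -2.05 (SE 0.17, adjusted p 0.00783). The receptor genes EcR and usp had changes of -0.15 and -0.31 (adjusted p 0.781 and 0.329, and 0.477 and 0.0582 with the block). The genotypes did not overlap for usp, and they did for EcR. Over the 48 genes of these 5 lists together, 22 changes were positive and 26 negative, with a median of -0.03. In each direction 1 gene (2.08%) was called, and with the block 27.1% of the 48 were, against 21.8% of all genes.

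Most Halloween enzymes are P450s, so the 81 genes with a P450 symbol (Cyp, a number and a letter) were read beside them. The genes Cyp1 and Cyp40, which are cyclophilins, share the Cyp prefix and were left out after the list was first read. Of the 81, 4 rose and 1 fell, 4.94% and 1.23% of the list, against 1.90% and 1.02% of all genes. With the block 21 rose and 9 fell, 37% of the list against 21.8% of all genes (median log2 change 0.04). The genes Cyp9b2, Cyp49a1 and Cyp309a1 rose by 1.52, 1.44 and 1.16 (log2, adjusted p 0.0291, 0.0234 and 0.0381 by limma). Cyp6a9 was also called higher (0.51, adjusted p 0.0292), and Cyp12d1-d was called lower (-0.96, adjusted p 0.0267). Both had levels at or below the highest Tag control on all 6 arrays, so their changes are differences within background.

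**Figure D4:**
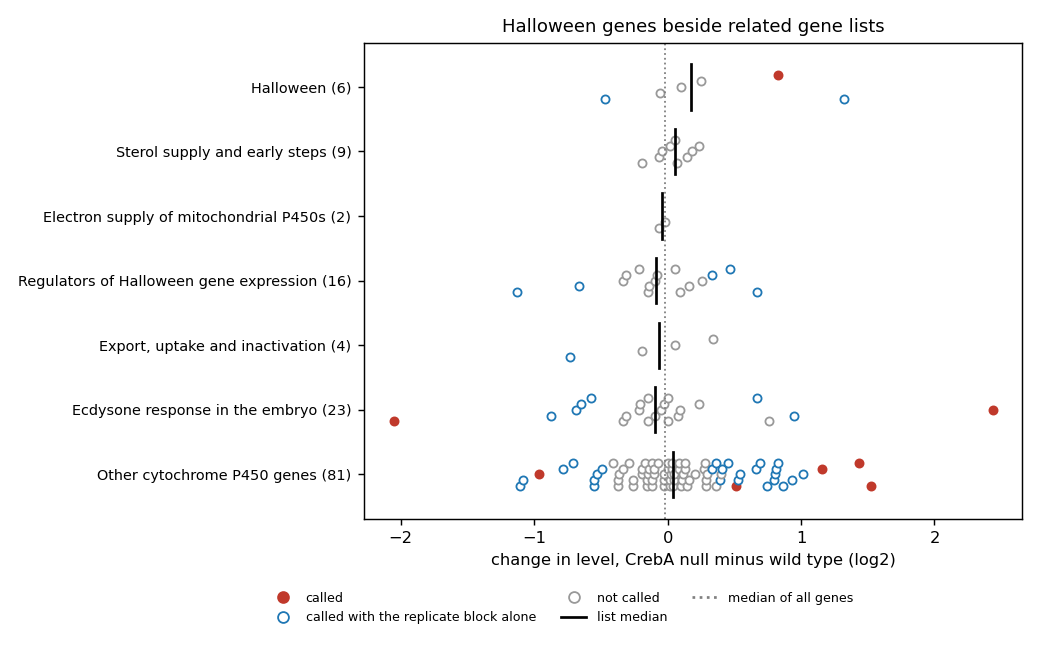
Change in level, CrebA null minus wild type (log2, horizontal axis), of each measured gene of the Halloween group and of 6 related lists, with the number measured in parentheses, the list median as a black bar and the median of all genes as a dotted line. Filled points passed the test without a block, blue open points only with it; the Halloween median is 0.18 and the medians of the other lists lie between -0.09 and 0.06.

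Markers of the tissues that could carry these transcripts were measured on the same arrays. Of 6 genes listed for the ring gland or the endocrine cells near it, 0 were called without the block, against 2.92% of all genes. With the block 3 of the 6 fell, against 9.21% of all genes. In whole embryos their signal can also come from other cells. Their summed level was 10.7 to 11.2 in wild type and 10.3 to 11.0 in mutants (log2 of the sum). That sum is weighted toward the brightest genes and does not measure the amount of ring gland. The levels of gl lay at or below the highest Tag control on all 6 arrays. Those that fell with the block were jhamt, Dfd and gl, with changes of -1.74, -0.61 and -0.34 and blocked adjusted p-values of 0.00124, 0.00984 and 0.0498. The brightest of them, sna and Antp, changed by 0.13 and 0.17 (adjusted p 0.901 and 0.933). Akh, the peptide hormone gene of the corpora cardiaca, changed by 0.26 (adjusted p 0.317), and jhamt is a gene of the corpora allata (SE 0.87, adjusted p 0.481 without the block). Of 4 epidermal and 6 amnioserosa genes, 0 were called, against 2.92% of all genes. With the block 1 amnioserosa gene, Doc1, fell, which is 16.7% of that list against 9.21% of all genes. The brightest, kkv and grh in epidermis and peb and ush in amnioserosa, changed by 0.20, -0.16, -0.32 and 0.24. Summed levels were 11.9 to 12.2 and 10.4 to 10.7 in wild type, and 11.9 to 12.3 and 10.1 to 10.6 in mutants. The part of these tissues in the changes of dib, spo and shd was not tested.

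Of the markers of other tissues, the measured ones comprised 2 muscle, 3 neuronal, 4 midgut, 4 fat body and 3 Malpighian tubule genes and 8 early patterning genes. No muscle, neuronal or patterning gene was called, against 2.92% of all genes. The brightest (Mlc1 and Tm2, fne and elav, hry and odd) changed by 0.39, 0.55, -0.09, -0.02, 0.12 and -0.06. With the block 2 muscle genes rose and 1 patterning gene fell, against 12.6% and 9.21% of all genes. In that fit 1 midgut gene rose and 1 fell, 2 fat body genes fell and 2 tubule genes rose. In midgut Jon25Bi rose and mex1 fell, by 0.63 and -3.84 (log2, adjusted p 0.0203 and 0.00429 by limma). In fat body Mtp fell (-1.04, adjusted p 0.0493), and in the tubule list VhaSFD rose (0.62, adjusted p 0.0404). In lists this short, 1 call is 25% of the midgut or fat body list and 33.3% of the tubule list. Over all genes 1.90% were called higher and 1.02% lower. Jon25Bi lay above the highest Tag control on 1 wild-type array and on the 3 mutant arrays, so its rise starts near background. Summed levels of the patterning genes, best known from younger embryos, were 9.88 to 10.8 in wild type and 9.77 to 10.8 in mutants. The 3′ minus 5′ signal of the actin control, a sign of RNA integrity, was 2.27 to 2.58 in wild type and 2.50 to 2.78 in mutants (log2), and that of the GAPDH control 2.57 to 3.11 and 2.58 to 2.78. The actin value was higher in the mutant of all 3 replicate pairs (2.78 against 2.58, 2.54 against 2.27 and 2.50 against 2.35), while the ranges of the genotypes overlapped for both controls. Their part in the Halloween gene values was not tested.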

How the data were processed

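The authors deposited log2 RMA expression values for 18952 probe sets on 6 arrays. RMA and Partek are the programs named, per the submitters' processing notes; versions, order and filters are not given in the sources used here. The log base was taken from the values' range. After 183 Affymetrix controls were left out, mutants were tested against wild type by limma 3.58.1 (lmFit, eBayes; R 4.3.3), two-sided, with no further normalization or filter. P-values were Benjamini-Hochberg adjusted over 18769 probe sets, with calls at an adjusted p under 0.05. Each gene was read from its brightest probe set among those naming 1 gene. Of 190 listed genes 174 were found by symbol, 3 under a synonym, and 13 had no probe set. The number of arrays limits the precision.

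The members, lists and tests were chosen with earlier results of these data known. Every member was named with all its probe sets. Each other list gave its called genes, up to 4 with the largest change, or its 2 brightest, and each member the 3 genes most like it in pattern. The genes spok, sro, GstE14, kni, vvl, ecd, Smox, EcR, usp, Cyp6a9, Akh, jhamt, Dfd, gl and Doc1 were named after their values were seen. The sample titles share replicate numbers across genotypes. Deviations of same-numbered arrays correlated over probe sets with r of 0.639, 0.852 and 0.563, each over 0.1. On that ground the numbers were treated as pairs, and each fit was repeated with that number as a block. Arrays of unlike number were not compared, and deviations from a genotype's own mean cancel out. Since replicate 2 stood apart in both genotypes, these values cannot show that replicates 1 and 3 are matched. The calls with the block rest on that assumed pairing. The fit without a block was tried on simulated data with independent noise on each array and no shared replicate effect. The fit with the block was not tried in that way. Alternatives were filters, scalings, variance models, array weights, the block, another threshold, another choice of probe set and arrays left out. Figures were drawn with matplotlib 3.10.9.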

Additional observations from a re-analysis of the deposited data

How the results depend on the processing

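Direction held for dib, spo, shd and phm in every alternative that kept them. The filter at a mean of at least 6 kept dib alone. For dib, spo and shd the genotypes did not overlap, so leaving arrays out could not turn the sign. For sad the change turned to -0.0116 with array weights, to -0.0585 without wild type replicate 3 and to -0.0067 without CrebA null mutant replicate 2 (range over single arrays left out -0.0585 to 0.223). For nvd it turned to 0.0481 with array weights, to 0.0694 without wild type replicate 2 (range over single arrays left out -0.158 to 0.0694) and to 0.0197 with both replicate 2 arrays left out. The number of Halloween genes called was 1 in the report and 0 (0 to 0) with any single array left out. It was 2 with the Tag control filter, an intensity trend, both replicate 2 arrays left out or a threshold of 0.1. With array weights or with the replicate block it was 3. The gene spo passed the Tag control filter through its mutant arrays alone, so its call there is not separate support. For the 48 other pathway genes the 2 calls became 8 with array weights, 13 with the replicate block, 4 with both replicate 2 arrays left out and 0 to 2 with 1 array left out. Over all probe sets the 438 calls became 266 at a mean of at least 6, 2444 with array weights, 3130 with the replicate block, 1005 without both replicate 2 arrays, 894 at the threshold of 0.1 and 40 to 280 with 1 array left out. Scaling on ribosomal protein genes gave 210 risen and 266 fallen probe sets in place of 267 and 171. The causes of these shifts were not tested. Signal over background limits what can be read from nvd, spo and shd.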
